A study of Mus musculus with 3 samples.

Results

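The cadherin superfamily was examined in the peaks of an hMeDIP experiment on mouse cerebellum. The family was taken as the protein-coding genes of the GENCODE M39 annotation whose symbols begin with Cdh or Pcdh followed by a digit or letter, or with Celsr, together with Fat1, Fat3, Fat4, Dchs1 and Dchs2. These were 109 of 21770 protein-coding genes. Peaks of the 3 replicates were merged where they overlapped, and a merged region was assigned to the family when its midpoint lay in a gene body or in the 1 kb upstream. This gave 77 of 13342 merged regions.

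Hydroxymethylated DNA immunoprecipitation (hMeDIP) pulls down DNA fragments with an antibody against 5-hydroxymethylcytosine (5hmC), the oxidised form of 5-methylcytosine (5mC). Here the product was sequenced on nanopore flow cells without amplification, so that each read carried its own 5hmC, 5mC or unmodified C call at CpG sites. All 3 replicates form a single group: cerebellum DNA of a female C57Bl6Cr mouse of 8 weeks, taken as 1 µg per reaction with fragments of 362 bp on average. The labels name no allele and no treatment. Library names trace all reactions to 1 animal, so the spread between replicates is technical and does not cover differences between mice. The antibody of replicate 1 was whole serum, and that of replicates 2 and 3 was purified IgG, so that the antibody and the replicate cannot be told apart. The peak lists held 497, 8546 and 5166 peaks in replicates 1, 2 and 3, and CpG sites in merged regions had 69910, 104238 and 75624 base-calls. Shares of 5hmC below are shares of base-calls in pulled-down fragments and not levels in the tissue. In whole cerebellum, a mark in few cells at a high level and a mark in many cells at a low level cannot be told apart.

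Cadherins are membrane proteins that hold cells together through repeated extracellular domains that bind calcium. Classical and type II cadherins link neighbouring cells to the actin cytoskeleton through catenins, the protocadherins of the Pcdha, Pcdhb and Pcdhg clusters give neurons combinations of surface proteins by which their own branches are told from others, and the giant Celsr, Fat and Dchs proteins act in planar cell polarity and growth control. 5hmC is made by TET enzymes, and in neurons it is abundant in the bodies of many genes.

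Sequences of 4 regions are shown because the results below turn on them. They are 300 b windows of GRCm39, forward strand, around a peak summit or at the start of the region, in lower case with each CpG dinucleotide in capitals. The first exon of Celsr2 held the only region with peaks of all 3 replicates, and the window holds 10 CpG sites. The Cdh4 window, in intron 2, belongs to the only other region with peaks of more than 1 replicate and holds 1 CpG site. The Fat1 window, in intron 1, belongs to the region with the highest 5hmC share among those with at least 20 base-calls. The Cdh13 window, in intron 2, is a CpG-dense stretch with 18 CpG sites and no unmodified call.
Celsr2 exon 1, chr3:108319679-108319978: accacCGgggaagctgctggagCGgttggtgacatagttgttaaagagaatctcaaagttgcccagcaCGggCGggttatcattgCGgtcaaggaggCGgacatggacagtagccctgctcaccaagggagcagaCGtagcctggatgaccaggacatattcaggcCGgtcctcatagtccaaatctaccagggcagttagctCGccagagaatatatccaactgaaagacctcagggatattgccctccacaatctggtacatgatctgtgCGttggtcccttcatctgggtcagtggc
Cdh4 intron 2, chr2:179402647-179402946: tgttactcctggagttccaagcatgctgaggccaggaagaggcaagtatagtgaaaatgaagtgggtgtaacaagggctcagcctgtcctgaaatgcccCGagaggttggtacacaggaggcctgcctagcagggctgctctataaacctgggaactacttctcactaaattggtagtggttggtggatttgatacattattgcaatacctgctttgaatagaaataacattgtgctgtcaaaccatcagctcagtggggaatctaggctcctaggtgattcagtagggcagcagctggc
Fat1 intron 1, chr8:45394175-45394474: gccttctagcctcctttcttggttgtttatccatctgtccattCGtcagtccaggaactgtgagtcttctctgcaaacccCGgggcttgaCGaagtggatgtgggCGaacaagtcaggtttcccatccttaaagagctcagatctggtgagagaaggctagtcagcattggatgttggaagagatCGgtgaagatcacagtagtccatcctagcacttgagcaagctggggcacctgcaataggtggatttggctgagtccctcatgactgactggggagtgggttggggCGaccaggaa
Cdh13 intron 2, chr8:119365611-119365910: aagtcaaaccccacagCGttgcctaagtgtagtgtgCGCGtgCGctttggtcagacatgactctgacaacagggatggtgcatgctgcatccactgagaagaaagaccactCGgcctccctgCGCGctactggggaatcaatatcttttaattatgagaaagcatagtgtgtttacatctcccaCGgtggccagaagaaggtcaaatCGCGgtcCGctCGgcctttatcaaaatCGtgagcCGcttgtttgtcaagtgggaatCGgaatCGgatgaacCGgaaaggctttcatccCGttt
Over the replicates, the Celsr2 window had 7 calls of 5hmC, 14 of 5mC and 8 of unmodified C. The Cdh4 window had 3 calls, all of 5hmC. The Fat1 window had 10 calls of 5hmC, 2 of 5mC and 1 of unmodified C. The Cdh13 window had 7 calls of 5hmC and 29 of 5mC. 5hmC was thus the most frequent call in the Cdh4 and Fat1 windows, and 5mC in the Celsr2 and Cdh13 windows.

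Regions were spread unevenly over the family. At least 1 region lay in 54 of the 109 genes, or 49.5%, where the share of protein-coding genes outside the family was 19.9%. This count is raised by the tandem arrays of the protocadherin clusters, in which 4 regions are shared among 37 of 59 annotated genes. Outside the clusters, 17 of 50 genes, or 34.0%, held the other 73 regions. Long genes offer more room for peaks, and among the 24 of these genes that span at least 100 kb the share with a region was 45.8%, where that of all protein-coding genes of this length was 53.3%. Fat1, Cdh13, Cdh22, Cdh4 and Cdh23 together held 49 regions, or 63.6% of the total. They were the 5 family genes with 5 or more regions, which is 4.59% of the family against 2.64% of all protein-coding genes. All 5 span at least 100 kb, and these shares were not matched for gene length.

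**Figure D1:**
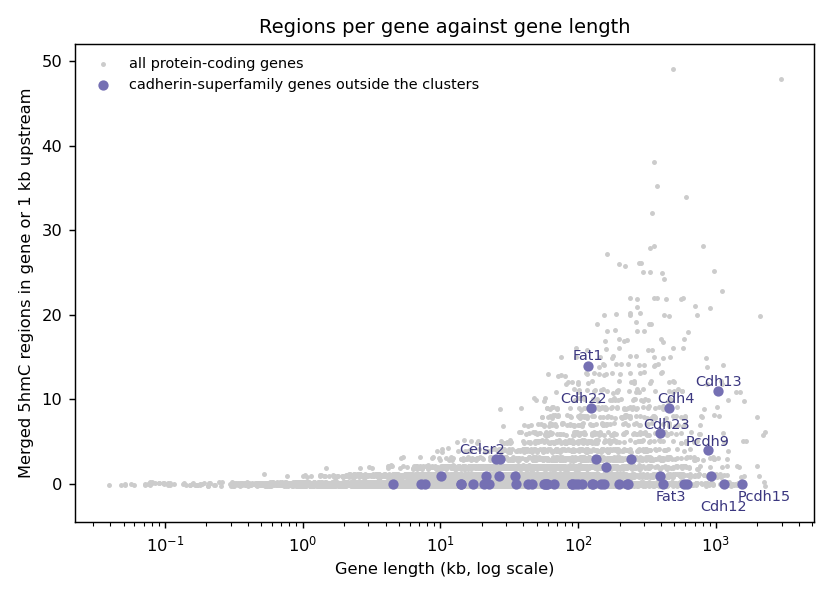
Number of merged 5hmC regions in each gene (vertical axis) against gene length in kb (horizontal axis, log scale), with grey points for all protein-coding genes, spread at random by up to 0.2 on the vertical axis for legibility, and purple points for family genes outside the clusters. Fat1 held 14 regions in 117 kb, whereas Pcdh15 held none in 1550 kb.

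Peaks were sparser in the family than in other protein-coding genes of all lengths pooled. Family genes had 0.0799, 3.60 and 2.72 peaks per Mb of gene body and upstream sequence in replicates 1, 2 and 3. All other protein-coding genes had 0.380, 6.35 and 3.85. The family was lower in 3 of 3 replicates, by 1.40 peaks per Mb on average (SD of the differences 1.25, n = 3). The difference was -1.94 without replicate 1 and -0.718 without replicate 2. The two-sided exact permutation test over replicates gave p = 0.25, which is the smallest value that 3 replicates can give. After merging, the family held 0.615 regions per 100 kb against 0.993 for other protein-coding genes. These densities were not matched for gene length. Among genes of at least 100 kb, the median was 0.259 regions per 100 kb in 2521 other genes and 0 in the 24 family genes outside the clusters. Several very long family genes held no region. The 13 family genes of at least 100 kb outside the clusters without a region span 5631 kb. They include Pcdh15, a protocadherin of the hair cell tip link (1550 kb), the type II cadherin Cdh12 (1140 kb), Pcdh11x (620.4 kb), Fat3 (591.1 kb) and Pcdh7 (416 kb). A count of 0 allows up to 3 regions, which is 0.193 per 100 kb in Pcdh15 and 2.82 in the shortest of the 13.

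Most family peaks rest on a few reads. The family held 1, 45 and 34 peaks in the lists of the 3 replicates, or 0.201%, 0.527% and 0.658% of the peaks in each list. The reads at a summit were estimated from the fold enrichment, and their median was 5, 3 and 3 in the family peaks of replicates 1, 2 and 3. In replicate 2, 82.2% of family peaks had at most 3 reads at the summit, against 81.0% of all peaks, and in replicate 3 the shares were 85.3% and 82.1%. The median fold enrichment of family peaks was 5.67, 3.81 and 3.87, and that of peaks in other regions 4.72, 3.83 and 3.87. The mean difference of 0.310 (SD 0.550, n = 3, p = 0.75, two-sided exact permutation test) was -0.00739 without replicate 1, in which the family held a single peak. Peaks of 2 or more replicates fell in 2 family regions, or 2.60%, where the share of all regions was 6.00%.

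The regions lay mostly in introns. By midpoint, 65 of 77 regions (84.4%) were intronic, 11 (14.3%) lay in coding exons, 1 in an untranslated exon and none in the upstream 1 kb. Of the 10653 other regions in or upstream of protein-coding genes, 85.6% were intronic, 9.14% in coding exons and 1.93% upstream. First introns held 20 of the family regions and later introns 45. Of those in first introns, 8 were in Cdh22, and the split was not made for other regions. Region length (median 304 bp in both sets), CpG density (median 1.66 CpG per 100 bp in the family and 1.77 elsewhere) and GC content (49.8% and 49.0%) were close in the 2 sets. Another annotated gene outside the family also covers 10 of the regions, such as Vsir, which lies within Cdh23.

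**Figure D2:**
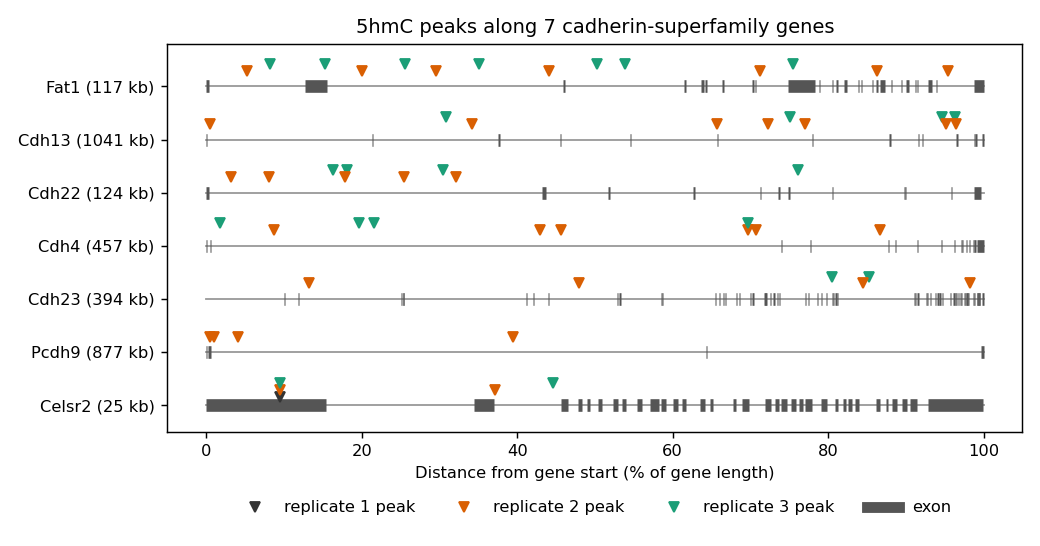
Position of each peak along 7 family genes as the percentage of gene length from the gene start (horizontal axis), with each triangle at the midpoint of the merged region, coloured by the replicate with a peak there, and grey blocks for exons. The 14 Fat1 peaks are spaced along the gene, 8 of 9 Cdh22 regions lie in the first intron, and of the regions shown, 1 in Cdh4 and 1 in Celsr2 hold peaks of more than 1 replicate.

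Celsr2 encodes a giant cadherin with 7 transmembrane segments that acts in planar cell polarity and in the guidance of axons and dendrites. The gene spans chr3:108298165-108323397 on the reverse strand, and its 3 regions in 25.2 kb gave 11.9 regions per 100 kb. The region with peaks of all replicates, chr3:108319679-108322309, lies wholly within the 3310 coding bases of exon 1. The peak of replicate 1 (chr3:108319679-108319973, fold enrichment 5.67, 5 reads at the summit) did not overlap that of replicate 2 (chr3:108320559-108322309, fold enrichment 4.77, 4 reads). They were joined through the peak of replicate 3 (chr3:108319884-108320854, fold enrichment 4.84, 4 reads), which overlapped the first by 90 bp and the second by 296 bp. No base of the region was therefore inside a peak in all 3 replicates.

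This exon region held 270 base-calls in all, the most of any family region, with 78, 104 and 88 in replicates 1, 2 and 3. Of these, 14.1%, 18.3% and 29.5% were 5hmC, and 76.9%, 63.5% and 55.7% were 5mC. 5mC thus outnumbered 5hmC in every replicate, with a mean 5hmC share of 20.6% ± 7.99 (SD, n = 3) and a mean 5mC share of 65.4% ± 10.7. The region has 130 CpG sites, of which 126 had a call and 13 had a call in all replicates. A 5hmC call was made at 44 sites in 1 or more replicates, at 9 sites in 2 or more and at none in all 3. The depth was at most 5 calls per site over the replicates, so that single sites cannot be ranked. On the side nearer the gene start 19.6% of 97 calls were 5hmC, and on the farther side 21.4% of 173 calls.

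**Figure D3:**
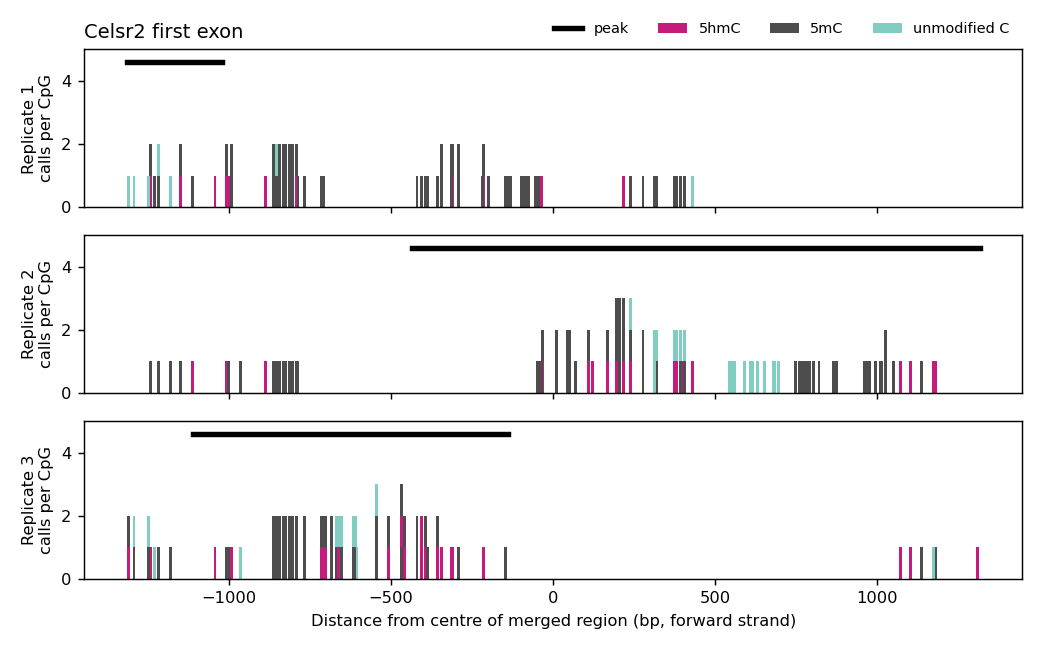
Base-calls at each CpG site of the Celsr2 first exon region (vertical axis, stacked by modification state) against distance in bp from the centre of the merged region (horizontal axis), one panel per replicate, with black bars for the peaks. The bars of replicates 1 and 2 do not overlap, and 5mC calls are the most frequent in each panel.

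A second Celsr2 region, chr3:108313721-108314339, had its midpoint in intron 2 and covered 274 of the 648 bases of exon 2. It held a peak of replicate 2 alone, with a fold enrichment of 5.74. Its 5hmC share was 18.8% of 16 calls, 11.5% of 104 and 31.2% of 16 in replicates 1, 2 and 3. Summed over replicates, 20 of 136 calls (14.7%) were 5hmC, 47 were 5mC and 69 were unmodified C, which was the lowest 5hmC share of the 9 family regions with at least 20 calls. Both Celsr2 regions together held 406 of the 1125 base-calls of the family, or 36.1%.

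Fat1 encodes a giant atypical cadherin with roles in cell polarity, actin organisation and growth control. The gene spans 117 kb and held 14 regions, or 11.97 per 100 kb, which placed it at the 99.8th percentile of protein-coding genes of at least 100 kb. Each region held a peak of a single replicate, 7 of replicate 2 and 7 of replicate 3, and none was shared. The regions ran from 6083 to 111652 bp downstream of the gene start, with a median spacing of 6527 bp, 11 in introns and 3 in coding exons. Of the 7 Fat1 regions with at least 10 calls, 5hmC calls outnumbered 5mC calls in 6, where the share of all regions with at least 10 calls was 38.4%.

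The 5hmC share over the Fat1 regions was 44.4% of 18 calls, 55.9% of 59 calls and 44.3% of 70 calls in replicates 1, 2 and 3, a mean of 48.2% ± 6.68 (SD, n = 3). All other family regions gave 26.0%, 23.8% and 33.1%, a mean of 27.6% ± 4.84, and 34.5% ± 4.40 without the pair of Celsr2 regions described above. Fat1 lay above the pooled other family regions in each replicate, although Pcdh9, with 15 of 30 calls as 5hmC, had a like share. The gene was singled out by its number of regions and is given without a test. Among the 30 family regions with at least 10 calls, the 4 with the highest 5hmC shares were in Fat1. 5hmC made up 8 of 10 calls in intron 2 (chr8:45418029-45418330), 72.7% of 22 in intron 1 (chr8:45394165-45394604), 69.2% of 13 in intron 1 (chr8:45397740-45398041) and 60.0% of 10 in intron 2 (chr8:45422719-45423022). Fat1 was not uniform, however. In coding exon 10 (chr8:45476430-45476731) the share was 25.9% of 27 calls, all of replicate 3, and in intron 3 (chr8:45451168-45451469) none of 7 calls was 5hmC or 5mC.

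The other giant cadherins differed in the number of regions. Celsr1 held 3 regions, with a single 5hmC call among 15 and 12 of 5mC. Celsr3 held 1 region in coding exon 1, where 5 of 12 calls were 5hmC. Dchs1, which binds Fat4 between neighbouring cells, held 1 region in coding exon 21 with 4 of 10 calls as 5hmC. No region was found in Fat3, Fat4 or Dchs2. The 8 giant cadherin genes together held 22 regions, with 5hmC shares of 21.0%, 23.2% and 34.9% in the 3 replicates, of which Celsr2 supplied most calls.

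**Figure D4:**
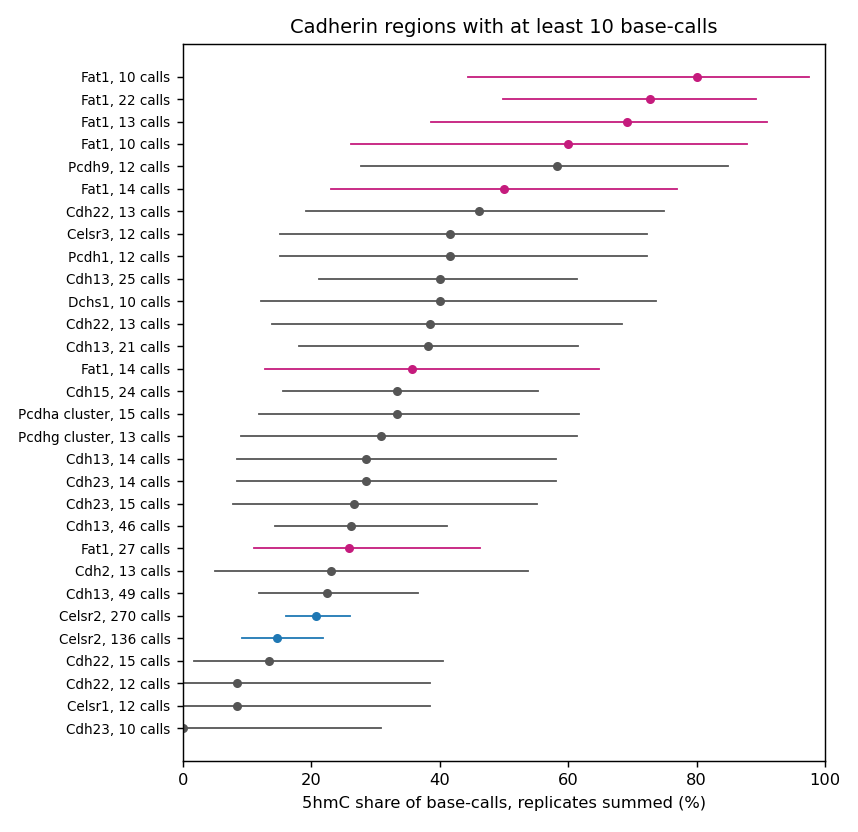
Share of 5hmC among base-calls, replicates summed (horizontal axis, percent), for the 30 family regions with at least 10 base-calls, each with its exact 95% binomial interval, which covers counting error only. Points of Fat1 are magenta, of Celsr2 blue and of other genes grey, and the uppermost 4 points are Fat1 regions.

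Classical and type II cadherins are the adhesion molecules that sort neurons and synapses by binding their own kind. Of the 5 classical genes, Cdh4 (R-cadherin) held 9 regions, Cdh2 (N-cadherin) 3 and Cdh15 (M-cadherin, named for muscle) 1, and Cdh1 (E-cadherin) and Cdh3 held none. In Cdh4, 8 of the 9 regions lay in intron 2 of this gene of 457.0 kb. That intron runs from 2404 to 337846 bp downstream of the gene start and so makes up most of the gene. The Cdh4 region with peaks of replicates 2 and 3, chr2:179402607-179403093, had fold enrichments of 2.87 and 3.87 from 2 and 3 reads at the summit, and the peaks overlapped by 304 bp. It has 3 CpG sites, with 1 call of 5hmC in replicate 2, 3 of 5hmC and 2 of 5mC in replicate 3, and no call in replicate 1. This region therefore rests on a handful of reads. Over all Cdh4 regions the 5hmC share was 29.3% of 41 calls in replicate 2 and 36.4% of 11 in replicate 3, without a call in replicate 1. The Cdh15 region in intron 1 (chr8:123575332-123576147) had 8 of 24 calls as 5hmC and the other 16 as unmodified C, with no 5mC call.

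Among the 13 type II genes, 5 held a region. The share with a region was 19.9% of protein-coding genes outside the family and 53.3% of all protein-coding genes of at least 100 kb. Cdh22, which is known for expression in brain, held 9 regions in 123.9 kb, or 7.26 per 100 kb. Of these 8 lay in intron 1, and the 5hmC shares over the gene were 38.9% of 18 calls, 32.4% of 34 and 21.1% of 19 in replicates 1, 2 and 3. Their exact 95% intervals, 17.3% to 64.3% in replicate 1 and 6.05% to 45.6% in replicate 3, overlapped. Cdh7 held 2 regions, and Cdh8, Cdh18 and Cdh24 held 1 each. Cdh18 spans 925.4 kb, so that its single region came to 0.108 per 100 kb. No region was found in Cdh10 or Cdh11, neuronal type II cadherins of 197.7 and 154.0 kb.

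Cdh13 and Cdh23 are atypical members. Cdh13, or T-cadherin, is held at the membrane by a lipid anchor and lacks the cytoplasmic tail that binds catenins. It held 11 regions over 1041 kb, or 1.06 per 100 kb. Its 5hmC shares were close to each other, at 29.4% of 17 calls, 29.6% of 115 and 35.3% of 51 in replicates 1, 2 and 3, a mean of 31.4% ± 3.35 (SD, n = 3). Summed over the gene, 5mC was the most frequent call in each replicate, with a mean of 57.9% ± 2.67. In replicate 2, however, 38 of the 69 5mC calls came from 1 region of intron 2 and 25 from 1 region of intron 10. The share of that replicate therefore rests largely on these regions and does not describe the others. The end of the gene held 4 regions in intron 10, of which chr8:120014262-120015361 had 12 of 46 calls as 5hmC and chr8:120013012-120013457 had 8 of 21. The region of intron 2 from which the Cdh13 window was shown had 49 calls, all of replicate 2, with 11 of 5hmC, 38 of 5mC and none unmodified. Cdh23, the partner of Pcdh15 at the hair cell tip link, held 6 regions. Its 5hmC share was 29.5% of 44 calls in replicate 2 and none of 7 calls in replicate 3, where the exact 95% interval reaches 41.0%.

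The delta protocadherins are single genes that mediate weak adhesion between neurons. They held 0.314 regions per 100 kb of gene body. Other protein-coding genes of all lengths pooled held 0.993 per 100 kb of gene body and upstream sequence. The median of those that span at least 100 kb was 0.259 per 100 kb. Pcdh1 alone held 11.1 per 100 kb of gene body. Of the 10 delta protocadherins, Pcdh9 held 4 regions in 877.3 kb, all with peaks of replicate 2, and Pcdh1 held 3 in 26.9 kb. In Pcdh9, 3 of the 4 regions lay in intron 2 and 1 in coding exon 2, and 15 of 30 calls were 5hmC against 9 of 5mC. Intron 2 of Pcdh9 runs from 5020 to 563836 bp downstream of the gene start, which is most of the gene. In Pcdh1, 10 of 27 calls were 5hmC and 10 were 5mC. No region was found in Pcdh7, Pcdh10, Pcdh17 or Pcdh19, of which Pcdh19 is known for a form of epilepsy, or in Pcdh15.

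The clustered protocadherins lie in tandem on 1 chromosome. In the Pcdha and Pcdhg clusters, genes join their own variable first exon to constant exons shared by the cluster. The 59 clustered genes shared 4 regions, of which 2 lay in the Pcdha cluster and 2 in the Pcdhg cluster, and the 22 genes of the Pcdhb cluster held none. The Pcdha regions held peaks of replicate 3, and the Pcdhg regions peaks of replicate 2. In each of the clusters with regions, 1 region lay in the coding first exon of a C-type isoform, Pcdhac2 or Pcdhgc5, and 1 in the intron that follows it. Their midpoints were 2586 and 4247 bp downstream of the start of Pcdhac2, and 2200 and 4583 bp downstream of the start of Pcdhgc5. The variable exons of the other isoforms held no region. Because the annotation runs upstream isoforms through to the constant exons, the same regions count for 37 genes, and Pcdha4b is annotated over 887.5 kb across all 3 clusters. Base-calls in the cluster regions were few, with 5hmC in 5 of 11, 1 of 8 and 8 of 18 calls of the 3 replicates. The mean share of 34.1% ± 18.7 (SD, n = 3) was set against 29.6% ± 4.55 in the other family regions. The difference of 4.54 percentage points had an SD of 17.4 and p = 0.75 in a two-sided exact permutation test. The difference was smaller than the spread between replicates, and with 3 replicates the test could not give p below 0.25. Its sign turned within each replicate's own peaks (-2.16) and with regions of at least 5 calls in a replicate weighted equally (-4.21). It also turned without replicate 1 (-2.87) and without the Celsr2 regions of at least 20 calls (-2.68).

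Across the family, the base-calls were set beside those of all other merged regions. The 5hmC share was 27.7% of 195 calls, 27.1% of 579 and 35.3% of 351 in replicates 1, 2 and 3, a mean of 30.05% ± 4.58 (SD, n = 3). Other regions had 16.6%, 28.3% and 28.2%, a mean of 24.4% ± 6.74. The family was higher in replicates 1 and 3 and lower in replicate 2, with a mean difference of 5.67 percentage points (SD 6.29, n = 3, p = 0.5, two-sided exact permutation test) that was 2.89 without replicate 1. The difference was therefore within the spread between replicates. In an alternative chosen after seeing the data, without 13 regions outside the family that have a CpG site with at least 20 calls, other regions had 29.1%, 31.8% and 31.8%, and the mean difference was -0.855 percentage points (n = 3, p = 0.75, exact permutation test). With equal weight for each region that had at least 5 calls in a replicate, it was 1.39 points (n = 3, p = 0.75, exact permutation test). Regions with fewer calls were left out of this weighting, here and below. The 5mC share was 53.3%, 45.6% and 49.6% in the family and 62.2%, 44.8% and 45.1% elsewhere, a mean difference of -1.22 percentage points (n = 3, p = 1, exact permutation test). This difference turned to 10.1 points without the 13 regions and to 4.49 with regions weighted equally, with the family higher in 3 of 3 replicates and p = 0.25 (n = 3, exact permutation test) in both. Unmodified C made up 19.0%, 27.3% and 15.1% in the family and 21.2%, 26.9% and 26.7% elsewhere, a mean difference of -4.45 (n = 3, p = 0.5, exact permutation test). It was -9.20 points without the 13 regions and -5.89 with regions weighted equally, with the family lower in 3 of 3 replicates and p = 0.25 (n = 3, exact permutation test) in both, but 4.07 points within each replicate's own peaks, 39.2 at CpG sites with at least 5 calls and 1.83 without replicate 3.

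**Figure D5:**
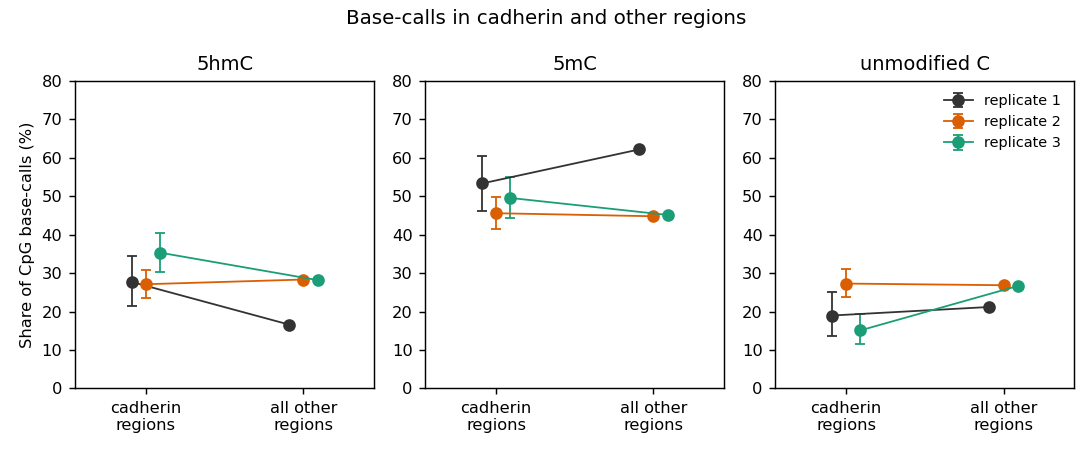
Share of CpG base-calls that were 5hmC, 5mC or unmodified C (vertical axis, percent) in the 77 family regions and in all other regions, with 1 line per replicate and bars for exact 95% binomial intervals, which cover counting error only. Lines of different replicates slope in different directions in each panel.

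Shares were also taken region by region. The median 5hmC share was 33.3% over the 30 family regions with at least 10 calls and 32.0% over the 6053 other regions. In 12 of the 30, or 40.0%, 5hmC calls outnumbered 5mC calls, where the share of all regions was 38.4%. No call was made in 2 regions, 1 in Cdh13 and 1 in Fat1, which is 2.60% of the family against 5.93% of all regions. Within the family, 86.0%, 63.6% and 70.6% of called CpG sites in replicates 1, 2 and 3 had a single call. With calls of a read lying next to each other, the intervals above cover counting error only. The pair of Celsr2 regions, which held the most calls and had the lowest 5hmC shares of the 9 family regions with at least 20 calls, weighed on the family mean. Without them it was 37.1% ± 2.87 (SD, n = 3), with 39.6%, 34.0% and 37.7% in the 3 replicates, and the difference to other regions was 12.7 points, a value that their removal raises by construction and that is given without a test.

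Genes that act with the cadherins were counted in the same way. Beside the counts below stand the 19.9% of protein-coding genes outside the family with a region, and the 53.3% of all protein-coding genes of at least 100 kb. Of 9 cytoplasmic partners, 8 held a region and together they held 37, and 5 of the 9 span more than 100 kb. Ctnnd2, which encodes the neuronal delta-catenin, held 14 regions with 53 of 157 calls as 5hmC, and Pkp4, a related armadillo protein, held 10 with 44 of 102. Ctnna3, an alpha-catenin gene of 1580 kb, held 5. Ctnnd1, which encodes p120-catenin, held none. Of 10 planar polarity partners, Vangl1, Prickle1, Prickle2 and Dvl1 held 1 region each. Of 11 other genes for proteins with cadherin repeats, 4 held 15 regions, namely Fat2 and Clstn1 with 5 each, Clstn2 with 4 and Clstn3 with 1, whereas the desmosomal cadherins and Ret held none. Fat2, the Fat cadherin known from cerebellar granule cells, had 43 of 88 calls as 5hmC. Among 7 regulators of the clustered protocadherin promoters, Ctcf held a region and the cohesin subunits Rad21, Smc1a and Smc3, Wapl, Smchd1 and Dnmt3b did not.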

How the data were processed

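The data were the peak lists and CpG base-call counts of 3 hMeDIP replicates, mapped by their number in the labels. The authors base-called reads with Dorado 0.5.1, aligned them to GRCm39 with minimap2 2.24, and called narrow peaks in each replicate with MACS2 2.2.6 against untreated DNA of the same sample. For each peak the authors deposited a fold enrichment (a ratio at the summit), p- and q-values as -log10, the summit offset and a score for display. Counts of calls per CpG site and state, and their percent values, were deposited by the authors and made with modkit 0.2.8 on the forward strand. The methods state that repeats and blacklisted peaks were removed, which was not checked here.

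Peaks were merged on an overlap of 1 bp. Modification shares are summed calls over summed valid calls, with exact 95% binomial intervals. Summit reads were computed from the fold enrichment as reads plus 1 over background plus 1, with 1 background per replicate. Of family peaks in replicates 2 and 3, 77.8% and 73.5% lay within 0.02 of a whole number, against 53.7%, 65.4% and 67.8% of all peaks in replicates 1, 2 and 3, so that these reads are estimates. Every called site on the chromosomes was a CpG in the reference, apart from 58 sites on other sequences that were not compared. Comparisons used the two-sided exact sign-flip permutation test over the 3 replicates. Genes named were those with peaks of 2 or more replicates, the 10 with most regions, the regions with at least 20 calls at either end of the 5hmC share, all cluster regions, the giant cadherins and a list of members known in the nervous system. The members, lists and tests were chosen with earlier results of these data known. Alternatives covered the assignment of regions, the peak threshold, the minimum of calls, the weighting of regions and each left-out replicate. Equal weighting averaged the shares of the regions with at least 5 calls in a replicate and left out the others. The software was numpy 2.4.6, scipy 1.17.1, pandas 2.3.3, pysam 0.24.0 and matplotlib 3.10.9 under Python 3.11.15, and the functions were tested on simulated data.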

Additional observations from a re-analysis of the deposited data

How the results depend on the processing

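Over 75 alternative settings of 10 results, 49 kept the sign of a difference or gave a count or share near the reported one. The 5hmC difference between family and other regions ran from -0.855 to 12.7 percentage points and the 5mC difference from -47.0 to 10.1, so neither kept its sign throughout. Peak thresholds changed the counts. With q of at most 0.01, 49 family regions were left, with 1 in 2 or more replicates. With fold enrichment of at least 4, there were 12 regions in 23 genes, again with 1 shared. Asking shared peaks to overlap by 50% of the shorter left 1. Leaving out each replicate in turn gave 34 to 77 regions, 28 to 54 genes and 0 to 2 shared regions. CpG sites with at least 5 calls left 20 family calls, all in replicate 2, with a 5hmC share of 15% and an unmodified share 39.2 points above other regions, and gave no value for the clusters. Within a replicate's own peaks, the unmodified difference was 4.07 points and the cluster difference -2.16. With regions of at least 5 calls in a replicate weighted equally, the 5hmC difference was 1.39, the 5mC difference 4.49 and the cluster difference -4.21. Left-out replicates moved the 5hmC difference from 2.89 to 7.51, the 5mC difference from -9.32 to 2.86, the unmodified difference from -8.52 to 1.83, the cluster difference from -2.87 to 11.5 and the difference in median fold from -0.00739 to 0.472. Some alternatives were chosen after seeing the data. Without the 13 regions outside the family with a CpG site of at least 20 calls, the 5hmC difference was -0.855, the 5mC difference 10.1 and the unmodified difference -9.20 points. Without the Celsr2 regions of at least 20 calls, the family 5hmC share was 37.1%, the 5hmC difference 12.7 points and the cluster difference -2.68. The family had fewer peaks per Mb under every alternative run, with a difference of -1.94 to -0.718 when replicates were left out. No paired analysis was possible because the study has a single group, apart from the family and other regions of the same library, which were compared within replicates throughout. Depth limits what single regions and single CpG sites can show, and with 3 replicates no test could give p below 0.25.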

Other observations

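The family regions densest in CpG sites had low 5hmC shares. Of the 9 family regions with at least 20 base-calls, 4 held more than 4 CpG sites per 100 bp, namely both Celsr2 regions, the intron 2 region of Cdh13 and the coding exon 10 region of Fat1. They had the lowest 5hmC shares of the 9, at 14.7%, 20.7%, 22.4% and 25.9%, with CpG densities of 5.49, 4.94, 4.79 and 7.28 per 100 bp. The other 5 regions had shares from 26.1% to 72.7%. These regions differ in which replicates supplied their calls, and the comparison was made after the values were seen, so it is given without a test.

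In replicate 1, 23 family regions without a peak of that replicate had calls, of which 36.8% of 117 were 5hmC, against 14.1% of 78 in the Celsr2 exon 1 region, the only one with a peak of replicate 1, and 23.1% of 13 within that peak. Outside the family, the calls of replicate 1 were 8.02% 5hmC in regions with a peak of that replicate and 30.7% in regions without one. Within its peaks there, the share was 7.33% of 41534 calls. A few deep regions weigh on the calls of replicate 1 outside the family. Without the 13 regions with a CpG site of at least 20 calls, these calls fell from 69715 to 37233. Their 5hmC share rose from 16.6% to 29.1%. In replicates 2 and 3, the shares in the family were 27.7% and 33.6% in regions with an own peak, and 5hmC made up 3 of 23 and 23 of 50 calls in regions without one. Other regions had 28.3% and 27.2% in regions with an own peak and 28.6% and 32.5% in regions without one. The exact 95% interval of the 3 of 23 calls, 2.78% to 33.6%, holds the values of the other sets of replicate 2.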
